A study of Caenorhabditis elegans with 12 samples.

Results

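The 9 genes described here encode small heat shock proteins of Caenorhabditis elegans: sip-1 (F43D9.4), the hsp-16 genes hsp-16.1 (T27E4.8), hsp-16.11 (T27E4.2), hsp-16.2 (Y46H3A.3), hsp-16.41 (Y46H3A.2), hsp-16.48 (T27E4.3) and hsp-16.49 (T27E4.9), and the shorter hsp-12.2 (C14B9.1) and hsp-12.6 (F38E11.2). They are 9 of 27904 genes in the count table and were selected by name with the measured RNA levels of the genotypes in view, so their differences between genotypes are given as descriptions without p-values. Early embryos, taken before the bean stage from synchronized worms at 20 °C, gave the total RNA, which was sequenced after removal of ribosomal RNA. The groups were wild-type N2 (Bristol), the strain met-2(n4256) III, the strain set-25(n5021) III, and the double mutant carrying both alleles, with 3 libraries each and 12 in all. MET-2 and SET-25 are methyltransferases for lysine 9 of histone H3. The labels speak of fewer independent biological replicates than the 3 libraries listed, so p-values may measure spread that is in part technical. Whole animals carried the mutations, and the embryos of a library were a mixed population of stages.

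Small heat shock proteins share an alpha-crystallin domain, form oligomers and hold unfolding proteins until other chaperones refold them. In C. elegans the hsp-16 genes are silent or low without stress and are switched on by heat through the heat shock factor HSF-1, whereas SIP-1 is made in oocytes and embryos without heat. HSP-12.2 is a short family member that is not induced by heat, and hsp-12.6 is known as a target of the insulin-pathway factor DAF-16 and of HSF-1.

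Library depth ranged from 16929810 to 52683919 counts in genes, and all set-25 and met-2 libraries were shallower than all N2 and double mutant libraries. Levels are given as CPM, counts relative to library size after scaling by the trimmed mean method (TMM). The targeted genes checked the labels only in part. The RNA of met-2 was at 314, 330 and 320 CPM in the 3 N2 libraries (given throughout as a, b, c) and at 54.3, 51.0 and 52.0 CPM when both alleles were present, but at 215, 275 and 313 CPM in the libraries labelled met-2. The RNA of set-25 was at 181, 185 and 218 CPM in N2, at 37.3, 40.1 and 37.6 CPM in set-25, at 57.5, 62.3 and 60.6 CPM in the double mutant and at 77.2, 109 and 115 CPM in the libraries labelled met-2. The libraries of that group are therefore called the libraries labelled met-2, and every direction drawn from them rests on that label. Where a pair of values is given for the single mutants, theirs comes first and that of set-25 follows.

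The 9 genes lie at 5 places in the WBcel235 annotation, all as protein-coding genes. On chromosome III, sip-1 spans 10506106 to 10506801 on the minus strand with 2 exons, and hsp-12.2 spans 8138077 to 8139631 on the plus strand with 3 exons. On chromosome IV, hsp-12.6 spans 9446229 to 9447228 on the minus strand. The hsp-16 genes sit in 2 clusters on chromosome V. In the first, hsp-16.2 (1804334 to 1804957, minus strand) and hsp-16.41 (1805178 to 1805875, plus strand) point away from each other across 220 bases. In the second, which runs from 9087293 to 9090604, hsp-16.1 and hsp-16.48 point apart across 348 bases, and their duplicated copies hsp-16.49 and hsp-16.11 point apart across 310 bases. The duplication shows in the annotation itself, which gives T27E4.2 the same name as hsp-16.1 and T27E4.9 the same name as hsp-16.48.

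The first cluster was measured and the second was listed at 0. All 4 genes of the second cluster had 0 counts in each of the 12 libraries, which allows at most 3 counts over a group, or 0.0246 CPM in N2, 0.0368 CPM in the libraries labelled met-2, 0.0430 CPM in set-25 and 0.0242 CPM in the double mutant (counting error only). This 0 cannot be read as absence of RNA. Of 194 protein-coding genes whose annotated name belongs to more than 1 gene, 180 (92.8%) were at 0 in all 12 libraries, against 396 of 18714 other protein-coding genes (2.12%). The 194 include these 4 hsp-16 genes, and without them 176 of 190 (92.6%) were at 0. Among histone genes, which every embryonic cell uses, 32 of 36 with a shared name were at 0 and 0 of 36 with a name of their own. No source used here states how the counting treated reads shared by copies, and its part in these zeros was not tested.

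**Figure D1:**
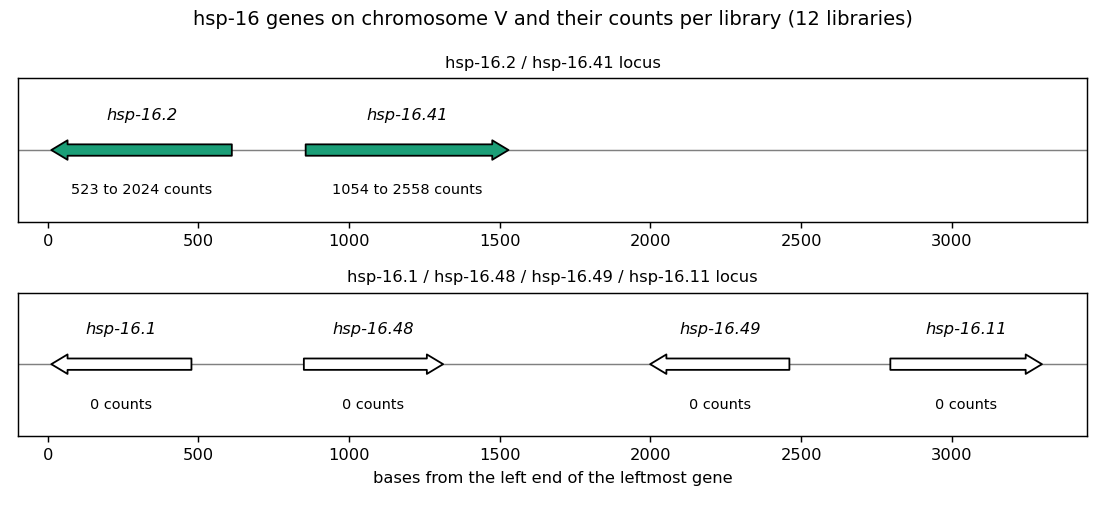
Map of the hsp-16 genes in their 2 clusters on chromosome V, drawn to scale, with the position in bases from the left end of the leftmost gene on the x axis, arrows for genes and their strand, and the range of counts per library under each gene. Filled arrows are genes with counts (hsp-16.2 at 523 to 2024 and hsp-16.41 at 1054 to 2558 counts per library), and open arrows are the 4 genes at 0 in all 12 libraries.

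Of the 9 genes, 4 passed the filter on low counts: sip-1, hsp-16.2, hsp-16.41 and hsp-12.2. The level of hsp-12.6 was too low for any fold, with 0 to 2 counts per library and 3, 1, 2 and 2 counts over the 3 libraries of N2, those labelled met-2, set-25 and the double mutant. Among the 4 measured genes sip-1 dominated, with 95.9 to 98.0% of the counts of the 9 genes in each N2 library and 96.5 to 97.2% in each double mutant library. Other alpha-crystallin genes are not part of that total. In the libraries labelled met-2 its share was 54.6 to 68.9%, and in set-25 59.9 to 78.8%.

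The RNA of sip-1, an embryonic small heat shock protein known to work best at acidic pH, was about 8 times lower in each single mutant than in N2 and near the N2 level in the double mutant. In N2 it stood at 1869, 1535 and 2309 CPM (90082, 57323 and 84612 counts). The libraries labelled met-2 had 228, 213 and 248 CPM, and set-25 had 199.8, 339 and 200.7 CPM. All 6 single mutant libraries were below every N2 library. In the double mutant it stood at 1313, 1615 and 1570.3 CPM, above all 6 single mutant libraries and overlapping N2.

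The fitted log2 difference from N2 was -3.05 (SE 0.18, n = 3 libraries a group; 8.29-fold lower) for the libraries labelled met-2 and -2.95 (SE 0.30; 7.73-fold lower) for set-25. For the double mutant it was -0.34 (SE 0.19), within the spread of the N2 libraries. Set directly against the single mutants, the double mutant was higher by 2.71 (SE 0.11) on the log2 scale than the libraries labelled met-2 and by 2.61 (SE 0.27) than set-25. The order of the mean levels was therefore N2 (1904 ± 389 CPM, SD, n = 3), double mutant (1499.5 ± 163 CPM), set-25 (246 ± 79.9 CPM) and the libraries labelled met-2 (229.8 ± 17.9 CPM). Neither the first pair nor the last pair in that order was separated by more than the spread of its libraries.

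Among all genes sip-1 was one of the most abundant RNAs of N2 and double mutant embryos. By counts it ranked 31, 42 and 17 in N2 and 64, 40 and 46 in the double mutant. In the libraries labelled met-2 it ranked 828, 916 and 764, and in set-25 997, 514 and 1026. Per kilobase of exon its mean level was 2976 CPM per kb in N2 and 2343 CPM per kb with both alleles, rank 14 in each, against 359 CPM per kb (rank 147) in the libraries labelled met-2 and 385 CPM per kb (rank 171) in set-25. By log2 difference from N2 it stood 11 from the lowest of 14260 genes tested for the libraries labelled met-2 and 20 from the lowest for set-25. A non-coding gene on the opposite strand, F43D9.8, covers 123 bases of sip-1. No source used here states whether counting used strand, so reads of that RNA could not be told apart.

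**Figure D2:**
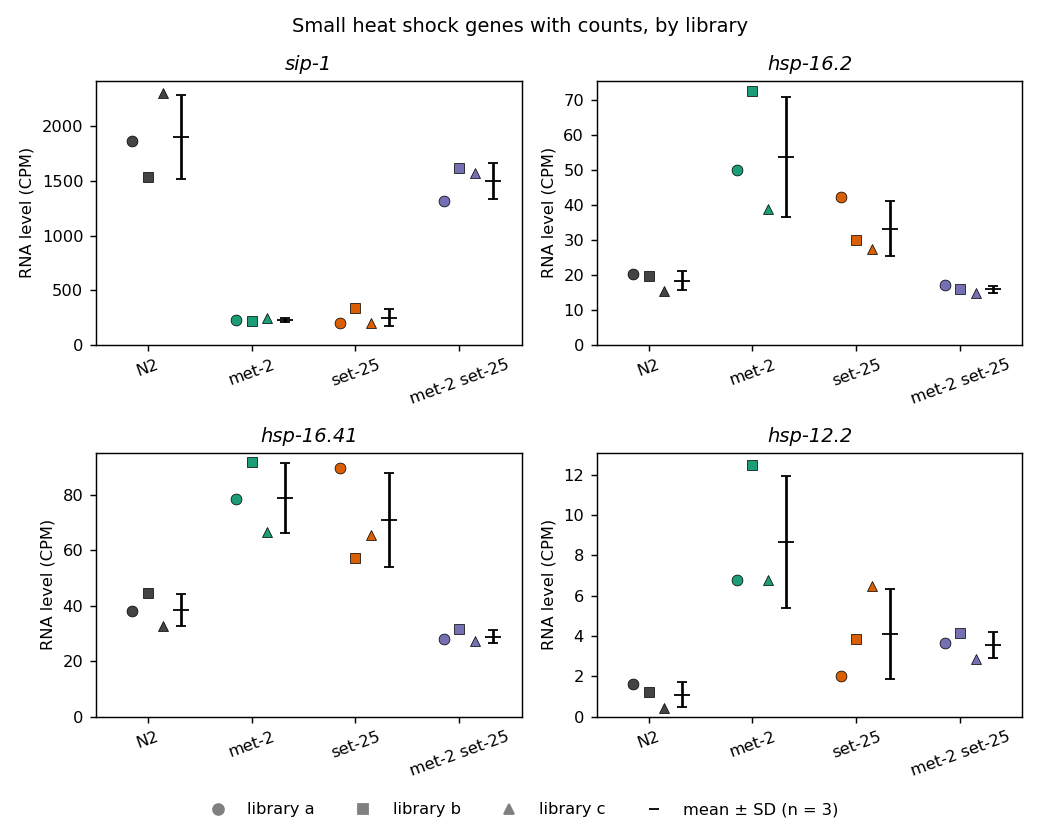
RNA levels of the 4 small heat shock genes with counts (y axis, TMM-scaled CPM, each panel with its own range) in the 3 libraries of each genotype (x axis; symbols mark libraries a, b and c), with mean ± SD in black. The 6 single mutant libraries lie at 199.8 to 339 CPM for sip-1, below the double mutant and N2, while for hsp-16.2 and hsp-16.41 they lie above both.

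Maternal RNA moved with sip-1 across the genotypes. The summed level of 20 genes whose RNA is laid down in oocytes, all detected, was 5472 to 6997 CPM in N2, and double mutant libraries had 4776 to 5402 CPM. It was 1957 to 2719 CPM in set-25 and 2126 to 2549 CPM in the libraries labelled met-2. Of these 20 genes 0 rose and 18 fell in the libraries labelled met-2 (median log2 difference -1.61, all genes 0.05), 0 rose and 17 fell in set-25 (median -1.46, all genes 0.07), and 0 rose and 2 fell in the double mutant (median -0.25, all genes -0.01; 0 to 5 fell when a library was left out). The lowest called was pie-1, a germline factor that represses transcription, at -2.29 (SE 0.21, edgeR adjusted p = 3.79e-06) and -2.28 (SE 0.24, edgeR adjusted p = 3.94e-06) in the single mutants. The difference in sip-1 was larger than that of any called gene of this list. The part of embryo stage in the sip-1 values was not tested, and in bulk RNA fewer cells of a type and less RNA per cell cannot be told apart.

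**Figure D3:**
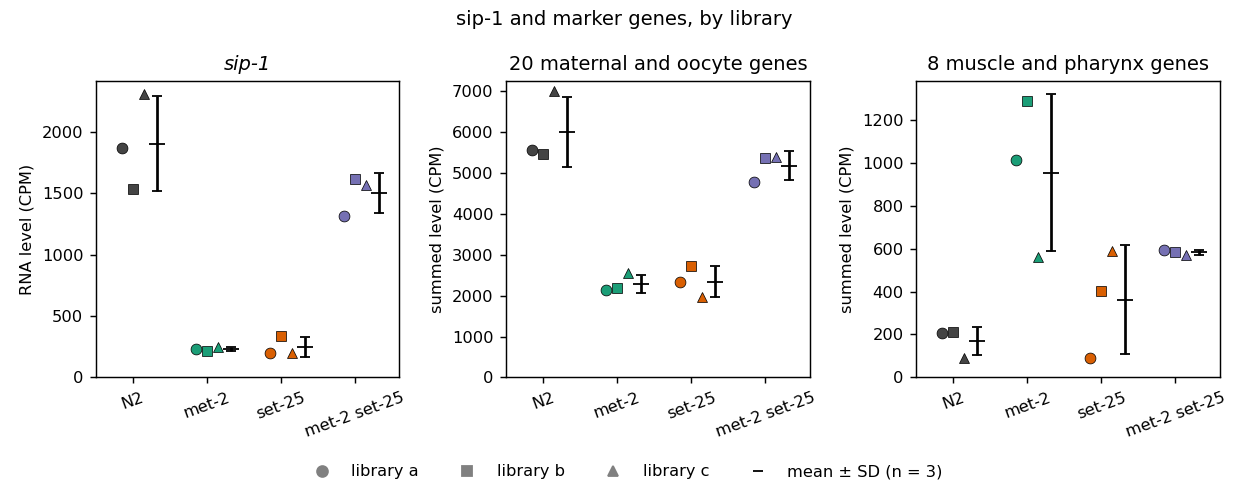
The level of sip-1, the summed level of 20 maternal and oocyte genes and the summed level of 8 muscle and pharynx genes (y axes, TMM-scaled CPM) in each library by genotype, with mean ± SD in black. The maternal sum is 1957 to 2719 CPM in the 6 single mutant libraries and 4776 to 6997 CPM in the other 6, and the muscle sum ranges from 88.3 CPM in set-25 library a to 1285 CPM in library b of those labelled met-2.

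The genes whose log2 levels ran most like sip-1 across the 12 libraries, out of 6871 with a symbol and at least 1 CPM on average, were pfn-1, xnd-1, hil-5, ubxn-1 and pie-1. Their Pearson correlations with sip-1 were 0.998, 0.995, 0.994, 0.994 and 0.994 over 12 libraries, which fall into 4 genotypes and differ in depth by genotype, so these values describe a shared contrast between groups. The profilin gene pfn-1, for an actin-binding protein, was at 217 CPM in N2, 166 CPM in double mutants, and 33.8 and 39.1 CPM in the libraries labelled met-2 and in set-25. The linker histone gene hil-5 was at 267, 256, 58.7 and 62.3 CPM in the same order. The other 3 measured genes of the 9 ran the opposite way, with correlations to sip-1 of -0.89 for hsp-16.2, -0.92 for hsp-16.41 and -0.69 for hsp-12.2.

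The heat-inducible gene hsp-16.2 was higher in both single mutants than in N2 and at the N2 level in the double mutant. It stood at 20.1, 19.5 and 15.3 CPM in N2, at 50.1, 72.5 and 38.8 CPM in the libraries labelled met-2, at 42.2, 29.8 and 27.5 CPM in set-25, and at 16.9, 15.8 and 14.8 CPM in the double mutant. All 6 single mutant libraries were above every N2 and double mutant library, and the double mutant overlapped N2. The log2 difference from N2 was 1.56 (SE 0.29; 2.94-fold higher) for the libraries labelled met-2, 0.86 (SE 0.23; 1.81-fold higher) for set-25 and -0.21 (SE 0.14) for the double mutant.

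Its head-to-head neighbour hsp-16.41, also heat-inducible, had the same order of groups. It stood at 38.0, 44.5 and 32.7 CPM in N2, at 78.5, 91.7 and 66.5 CPM in the libraries labelled met-2, at 89.6, 57.2 and 65.4 CPM in set-25, and at 27.8, 31.5 and 27.1 CPM in the double mutant. The single mutants were above N2 in all 6 libraries, and all 3 double mutant libraries were below all 3 N2 libraries by a small margin. The log2 difference from N2 was 1.04 (SE 0.19; 2.05-fold higher) for the libraries labelled met-2, 0.88 (SE 0.23; 1.84-fold higher) for set-25 and -0.42 (SE 0.14) for the double mutant, the last not past the threshold.

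Against the single mutants directly, the double mutant was lower by -1.76 (SE 0.27) and -1.07 (SE 0.20) on the log2 scale for hsp-16.2 and by -1.45 (SE 0.15) and -1.30 (SE 0.20) for hsp-16.41, for the libraries labelled met-2 and set-25 in turn. Per kilobase of exon hsp-16.41 exceeded hsp-16.2 in every library, by a ratio of 1.14 to 2.15. That ratio was 1.71, 2.06 and 1.94 in N2, 1.73 to 2.15 in set-25 and 1.48, 1.80 and 1.65 in the double mutant. In the libraries labelled met-2 it was 1.42, 1.14 and 1.55, lowest in library b, where hsp-16.2 was highest. Per kilobase the N2 means of 31.7 and 60.0 CPM per kb for the pair compare with 2976 CPM per kb for sip-1.

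The non-inducible gene hsp-12.2 was higher than N2 in all 3 mutant groups, at low levels. It had 78, 46 and 15 counts in N2, 173, 348 and 190 in the libraries labelled met-2, 51, 98 and 123 in set-25 and 158, 175 and 112 in the double mutant. As CPM these were 1.62, 1.23 and 0.41 in N2, 6.78, 12.5 and 6.77 in the libraries labelled met-2, 2.01, 3.85 and 6.46 in set-25, and 3.66, 4.16 and 2.88 in the double mutant. Every mutant library was above every N2 library, and the spread within N2 and within set-25 was wide. The log2 difference from N2 was 2.98 (SE 0.63), 1.89 (SE 0.74) and 1.70 (SE 0.58) for the libraries labelled met-2, set-25 and the double mutant. The double mutant was at -1.28 (SE 0.33) on the log2 scale against the libraries labelled met-2 and at -0.19 (SE 0.50) against set-25, with overlap in the latter. A protein-coding gene on the opposite strand, C14B9.8, covers 11 bases of hsp-12.2. As the use of strand in counting is not stated, reads of that stretch could not be told apart.

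RNA of differentiated tissue varied between libraries of a genotype as hsp-12.2 did in part. The summed level of 8 muscle and pharynx genes, all detected, was 205, 211.5 and 92.3 CPM in N2 libraries a, b and c, 1014, 1285 and 563 CPM in those labelled met-2, 88.3, 404 and 590.0 CPM in set-25, and 592, 583 and 571.5 CPM in the double mutant. In set-25 both measures were lowest in library a and highest in library c, and in N2 both were lowest in library c. In the double mutant, by contrast, hsp-12.2 was highest in library b and the muscle sum in library a. Neither hsp-16 gene had the set-25 order, and both were highest in library a there. In the libraries labelled met-2, however, both hsp-16 genes and the muscle sum were highest in library b and lowest in library c. There hsp-12.2 was also highest in library b, at 12.5 CPM, with 6.78 and 6.77 CPM in libraries a and c. In N2 both hsp-16 genes were also lowest in library c. In the double mutant hsp-16.2 had the order of the muscle sum, and hsp-16.41 did not. The part of differentiated tissue in the hsp-12.2 and hsp-16 values was not tested. Of the 8 muscle genes 8 rose in the libraries labelled met-2, 4 in set-25 and 5 in the double mutant, and 0 fell. The set-25 count was 7 without set-25 library a and 3 to 5 without any other library. That of the double mutant was 0 when any of the 6 libraries compared was left out or with no filter on low counts, 8 without set-25 library a, and 1 without all the libraries labelled met-2. The summed level of 6 gut genes was 40.4 to 71.0 CPM in N2, 158 to 300.1 CPM in the libraries labelled met-2, 57.0 to 176 CPM in set-25 and 115 to 127 CPM in the double mutant. For 6 epidermis and cuticle genes the sums in that order were 737 to 1324, 2244 to 3962, 877 to 2346 and 2299.7 to 2572 CPM, and for 5 neuronal genes 265 to 308, 117.5 to 156, 113 to 138 and 252.5 to 274 CPM. The neuronal sum was made up in N2 mostly by 1 gene, snb-1, for a synaptic vesicle protein, at a mean of 251 CPM in N2, 49.9 and 58.3 CPM in the single mutants and 220.4 CPM with both alleles. Of the 5 neuronal genes 4 rose and 1, snb-1, fell in each single mutant (median log2 difference 2.54 and 1.83). The 6 yolk protein genes of the adult gut summed to 0.471 to 2.43 CPM in any library, with vit-4 at 0 in set-25.

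Counted against the whole table, 3 of the 4 genes tested were called higher and 1 lower in the libraries labelled met-2, where 35.2% of all genes tested were called higher and 29.6% lower (edgeR adjusted p under 0.05). In set-25 the count was again 3 higher and 1 lower, against 24.2% and 21.6% of all genes. In the double mutant 1 was called higher and 0 lower, against 8.7% and 3.34% of all genes, and that call, hsp-12.2, was lost when any of its 6 libraries was left out (log2 difference 1.32 to 2.11). Double mutant against the libraries labelled met-2 had 1 higher and 3 lower, with 23.1% and 30.8% of all genes. There the call of hsp-12.2 was lost without library b of those labelled met-2 (-0.87) or when any double mutant library was left out (-1.12 to -1.39). Double mutant against set-25 had 1 higher and 2 lower, with 20.5% and 17.7% of all genes. Since the genes were chosen by their values in these same contrasts, nothing is read from these counts, and the comparisons with N2 share the N2 libraries.

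The departure of the double mutant from the sum of the single mutants' log2 differences was 5.66 for sip-1, -2.62 for hsp-16.2, -2.33 for hsp-16.41 and -3.17 for hsp-12.2. All 4 were past the threshold in a fit where 64% of all genes were, and since the 4 were chosen by these values, nothing is read from it. The sign follows from the differences from N2 given above and adds nothing to them. It was positive for the gene that was lower in both single mutants and negative for the 3 that were higher.

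The other alpha-crystallin genes of the genome also differed in both directions. Of 9 listed, 8 were tested, of which 5 rose and 2 fell in the libraries labelled met-2, 4 rose and 2 fell in set-25, and 3 rose and 0 fell in the double mutant. Their median log2 difference was 1.45, 1.06 and 1.19, against 0.05, 0.07 and -0.01 for all genes. Of all genes tested, 35.2% were called higher and 29.6% lower in the libraries labelled met-2, and 24.2% and 21.6% in set-25. In the double mutant the shares were 8.7% and 3.34%. All list counts, here and in the other paragraphs, are to be read beside these shares. The largest called difference was that of hsp-43, a family member known from cells of the adult vulva and spermatheca, which had 18, 12 and 1 counts in N2, 74, 125 and 54 in the libraries labelled met-2, 36, 55 and 72 in set-25 and 61, 69 and 58 in the double mutant. It rose by 3.63 (SE 0.82, edgeR adjusted p = 2.18e-04), 3.28 (SE 0.84, edgeR adjusted p = 9.16e-04) and 2.60 (SE 0.74, edgeR adjusted p = 0.0178) on the log2 scale, the last call lost when any double mutant library was left out.

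The family member Y55F3BR.6 was low in both single mutants and near N2 in the double mutant, at 13.6, 11.5 and 15.04 CPM in N2, 3.92, 3.76 and 4.24 CPM in the libraries labelled met-2, 3.59, 4.20 and 3.47 CPM in set-25 and 12.7, 13.6 and 12.7 CPM in the double mutant. It fell by 1.75 (SE 0.12, edgeR adjusted p = 1.01e-05) and 1.83 (SE 0.14, edgeR adjusted p = 9.91e-06) on the log2 scale and differed by -0.04 (SE 0.12, edgeR adjusted p = 0.875) in the double mutant. The muscle-associated hsp-25 differed by 0.08 (SE 0.39, edgeR adjusted p = 0.847) and -0.18 (SE 0.53, edgeR adjusted p = 0.689) in the single mutants and rose by 1.36 (SE 0.34, edgeR adjusted p = 0.0268) in the double mutant, where its level was 42.5, 41.2 and 41.5 CPM against 19.5, 19.7 and 9.72 CPM in N2. That call was lost when any of the 6 libraries was left out. The remaining calls, named after their values were seen, were hsp-12.1, hsp-12.3 and hsp-17, which rose in both single mutants, ZK1128.7, which rose in the libraries labelled met-2, and F08H9.3, which fell in both. The set-25 call of F08H9.3 was lost with library totals, with DESeq2 size factors, with no filter, when only those groups were fitted, after thinning to the smallest library total, and without set-25 library b or c or N2 library b or c. In the double mutant hsp-12.3 rose by 1.48 (SE 0.29), a call lost after thinning or when any of the 6 libraries was left out.

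**Figure D4:**
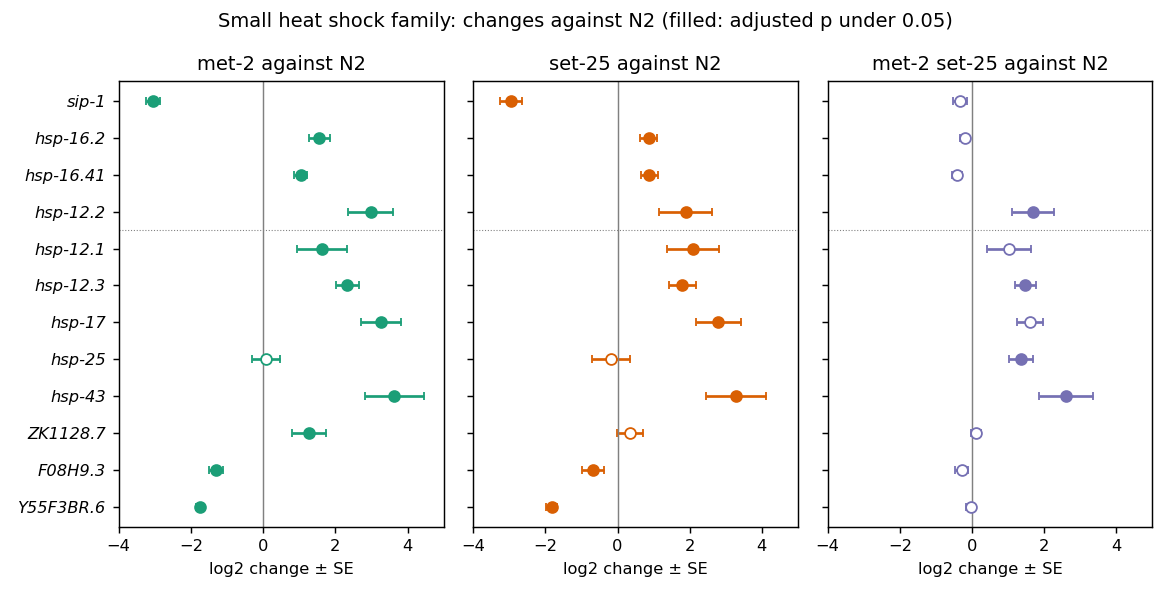
Log2 difference from N2 ± SE (x axis) for the 4 measured genes above the dotted line and 8 other alpha-crystallin genes below it, with a panel for each mutant group (n = 3 libraries a group); filled points are past an edgeR adjusted p of 0.05. The lowest value in both single mutants is sip-1 at -3.05 and -2.95, and the highest is hsp-43 at 3.63 and 3.28.

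The regulators of the heat-inducible genes were lower in the single mutants, where hsp-16.2 and hsp-16.41 were higher. The RNA of hsf-1, the heat shock transcription factor, was at 163, 148 and 174 CPM in N2, 93.6, 108 and 112 CPM in the libraries labelled met-2, 83.8, 96.4 and 94.1 CPM in set-25 and 158, 164 and 166 CPM in the double mutant. All 6 single mutant libraries were below all others. It fell by 0.63 (SE 0.10, edgeR adjusted p = 1.91e-04) and 0.82 (SE 0.09, edgeR adjusted p = 6.50e-05) on the log2 scale and differed by 0.01 (SE 0.07, edgeR adjusted p = 0.937) in the double mutant. The HSF-1 inhibitor hsb-1 fell by 1.35 (SE 0.27, edgeR adjusted p = 7.57e-04) and 0.96 (SE 0.33, edgeR adjusted p = 0.0104), the second call lost with library totals or without set-25 library b or c. Of the 4 genes of this list 4 fell in each single mutant, and with scaling by library totals 3 and 1. In set-25 it was 2 without set-25 library b or c. The smallest called fall in the libraries labelled met-2 was 0.54 for ddl-2 (SE 0.11, edgeR adjusted p = 0.0435), lost with library totals or when any of the 6 libraries was left out. In set-25 it was 0.53 for ddl-1 (SE 0.13, edgeR adjusted p = 0.00661), lost with library totals or without set-25 library b or c. Both genes encode partners in the inhibitory complex with HSF-1, and ddl-1 also fell in the double mutant by 0.47 (SE 0.05, edgeR adjusted p = 0.0403). That call was lost when any of the 6 libraries was left out. It was also lost with library totals, DESeq2 size factors, no filter, thinning, or without the libraries labelled met-2.

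The stress-inducible HSP70 gene hsp-70 (C12C8.1), named after its values were seen, had the genotype pattern of hsp-16.2. It was at 7.60, 6.77 and 4.50 CPM in N2, 38.0, 61.6 and 35.9 CPM in the libraries labelled met-2, 15.5, 14.2 and 10.6 CPM in set-25 and 5.67, 5.21 and 5.15 CPM in the double mutant. As for hsp-16.2, library b of those labelled met-2 was the highest of the 12. The level of hsp-70 was higher by 2.84 (SE 0.34) and 1.09 (SE 0.28) on the log2 scale and differed by -0.24 (SE 0.23) in the double mutant. As the gene was named after its values were seen, these are descriptions without p-values. The inducible relative F44E5.4 rose by 2.87 (SE 0.59, edgeR adjusted p = 4.93e-04) and 2.02 (SE 0.54, edgeR adjusted p = 0.00954), but had only 17, 5 and 4 counts in N2 and has a near-identical neighbour, F44E5.5. How reads shared by the pair were counted is not stated, so its values are uncertain. Its call in set-25 was lost after thinning to the smallest library total (1.86, edgeR adjusted p = 0.11).

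The constitutive hsp-1 and the mitochondrial hsp-6 were lower in the single mutants. The RNA of hsp-1, the main cytosolic HSP70, was at 1186, 1234 and 1349 CPM in N2, 505, 563 and 519 CPM in the libraries labelled met-2, 361, 663 and 617.5 CPM in set-25 and 1442, 1479 and 1568 CPM in the double mutant. All 6 single mutant libraries were below all others. It fell by 1.25 (SE 0.07, edgeR adjusted p = 1.17e-04) and 1.199 (SE 0.28, edgeR adjusted p = 3.15e-04) on the log2 scale and differed by 0.25 (SE 0.07, edgeR adjusted p = 0.332) in the double mutant. The mitochondrial hsp-6 fell by 1.03 (SE 0.08, edgeR adjusted p = 5.85e-05) and 1.35 (SE 0.19, edgeR adjusted p = 1.70e-05). Over the 10 genes of the HSP70 list 3 rose and 3 fell in the libraries labelled met-2 and 2 rose and 4 fell in set-25, while scaling by library totals gave 5 and 3, and 3 and 2. In the double mutant 0 were called under either scaling. When only the double mutant and N2 were fitted, 3 rose and 2 fell of 8 tested. There hsp-1 (0.26, edgeR adjusted p = 0.0161) and hsp-6 (0.34, edgeR adjusted p = 0.00644) were called higher.

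**Figure D5:**
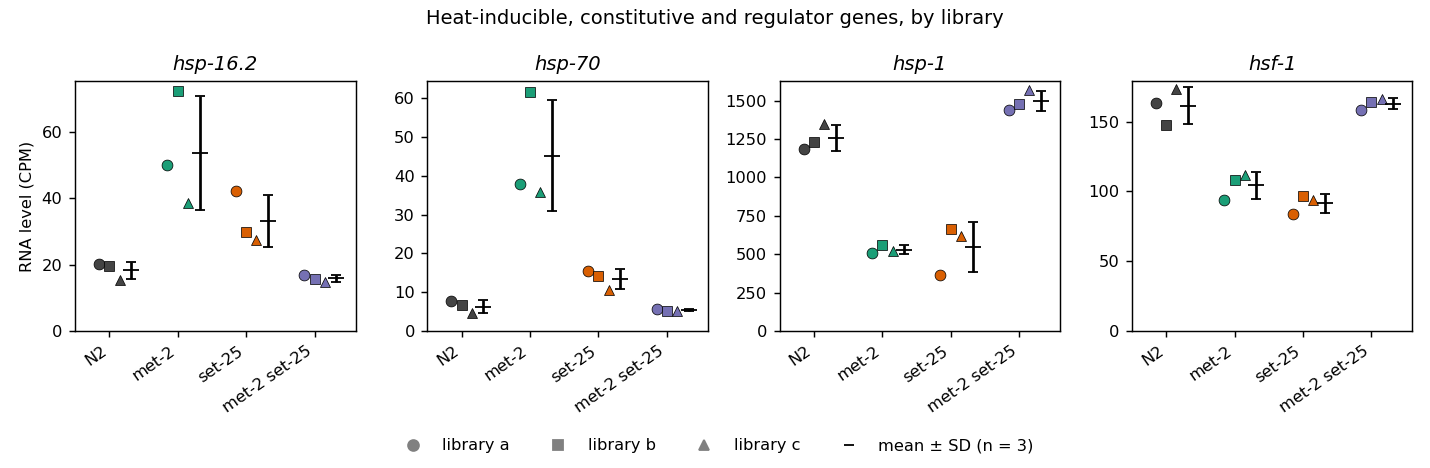
RNA levels (y axis, TMM-scaled CPM, each panel with its own range) of hsp-16.2, the inducible hsp-70, the constitutive hsp-1 and the transcription factor gene hsf-1 in the 3 libraries of each genotype, with mean ± SD in black. In the 6 single mutant libraries hsp-16.2 and hsp-70 are above N2, at 27.5 to 72.5 CPM and 10.6 to 61.6 CPM, and hsp-1 and hsf-1 are below, at 361 to 663 CPM and 83.8 to 112 CPM.

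Of 9 chaperonin genes, which form the folding chambers of cytosol and mitochondria, 0 rose and 8 fell in the libraries labelled met-2, and 0 rose and 6 fell in set-25 (5 and 4 fell with scaling by library totals). The largest fall was that of cct-8, by 1.02 (SE 0.12, edgeR adjusted p = 7.14e-05) and 1.10 (SE 0.18, edgeR adjusted p = 8.28e-05) on the log2 scale. Of 10 genes of the HSP90 list 3 rose and 5 fell in the libraries labelled met-2 and 3 rose and 3 fell in set-25, a split that became 4 and 3, and 4 and 2, with library totals. Without set-25 library a the set-25 split was 2 and 5, and 4 and 2 without library b or c. The kinase co-chaperone cdc-37 fell by 1.14 (SE 0.14, edgeR adjusted p = 2.73e-04) and 1.00 (SE 0.30, edgeR adjusted p = 0.00134). The myosin chaperone unc-45 rose in the libraries labelled met-2 by 0.43 (SE 0.07, edgeR adjusted p = 0.00419), and ahsa-1, which activates the HSP90 ATPase, rose by 0.55 (SE 0.16, edgeR adjusted p = 0.0399) in set-25. The call of ahsa-1 was lost without set-25 library a or N2 library a or c, and with no filter.

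Of 29 J protein genes, whose products deliver clients to HSP70, 6 rose and 14 fell in the libraries labelled met-2, and 1 rose and 4 fell in set-25, but with library totals the split turned to 7 and 6, and 14 and 3, so the direction of this family depends on the scaling. Without library a or b of those labelled met-2 the falls there numbered 7 or 8, and 10 to 17 without any other library. The set-25 split was 3 and 7 without set-25 library a, 5 and 3 without library b or c, and 4 to 7 rises against 4 falls without a library labelled met-2. In the libraries labelled met-2 the largest called differences were those of dnj-20, which rose by 0.84 (SE 0.21, edgeR adjusted p = 0.00110), and dnj-14, which fell by 1.09 (SE 0.06, edgeR adjusted p = 1.00e-05). In set-25 dnj-19 rose by 0.31 (SE 0.06, edgeR adjusted p = 0.0256), and dnj-5 fell by 0.79 (SE 0.17, edgeR adjusted p = 5.04e-04). The call of dnj-19 was lost when any N2 library was left out, with no filter, or when only set-25 and N2 were fitted.

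Over all 70 chaperone genes tested of 71 listed, 17 rose and 36 fell in the libraries labelled met-2 (median log2 difference -0.31), 10 rose and 23 fell in set-25 (median -0.09), and 3 rose and 4 fell in the double mutant (median -0.01). Against library totals these became 21 and 22, 25 and 13, and 3 and 0, so neither the excess of falls in the libraries labelled met-2 nor that in set-25 held under both scalings. That scaling moved the median of all genes from 0.05 to 0.32, from 0.07 to 0.37 and from -0.01 to 0.00 on the log2 scale. Without set-25 library a, b or c the set-25 split was 11 and 29, 15 and 18, or 15 and 15. Without library a, b or c of those labelled met-2 it was 17 and 17, 13 and 19, or 17 and 17. The 7 calls of the double mutant came to 0 or 1 when any of its 6 libraries was left out, and to 9 rises and 17 falls without set-25 library a. They included dnj-18, which fell by 0.31 (SE 0.03, edgeR adjusted p = 0.0475), and dnj-2, which fell by 0.46 (SE 0.09, edgeR adjusted p = 0.0358). For sip-1, the differences with library totals were -2.78 and -2.66 in the single mutants, so its direction held.

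Stress genes linked to DAF-16 were also listed. Of 9 tested, 2 rose and 3 fell in each single mutant, and 1 rose and 0 fell in the double mutant. Of all genes tested 35.2% and 24.2% rose and 29.6% and 21.6% fell in the single mutants, so nothing is read from these counts. The metallothionein gene mtl-2 had the largest rise, by 3.72 (SE 0.38, edgeR adjusted p = 7.44e-04) and 3.02 (SE 0.50, edgeR adjusted p = 0.00775) on the log2 scale, from 4, 1 and 0 counts in N2 to 14, 19 and 14 and to 7, 6 and 11 counts in the single mutants. At so few counts these SEs understate the error of the differences. The superoxide dismutase gene sod-3 fell by 1.32 (SE 0.31, edgeR adjusted p = 0.00879) and 1.27 (SE 0.23, edgeR adjusted p = 0.0186), from 25, 16 and 23 counts in N2, the first call lost without library a of those labelled met-2 and the second with library totals, with the DESeq2 Wald test and without set-25 library b or c or N2 library c. The catalase gene ctl-2 rose by 0.47 (SE 0.10, edgeR adjusted p = 0.0397) in the double mutant. That call was lost when any of the 6 libraries was left out or without the libraries labelled met-2.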

How the data were processed

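The authors deposited counts per gene, raw whole numbers per library, with a further column in other units that gives a width in bases and was not used. The sources used here name no aligner, build, strand setting or treatment of reads with several matches. Columns were assigned to genotypes by name. Names, positions and exon lengths come from the Ensembl annotation of WBcel235, in which 94.4% of the genes were found. All 12 libraries were fitted together with edgeR 4.0.16 in R 4.3.3 (filter on low counts by genotype, TMM, robust quasi-likelihood test, Benjamini-Hochberg over 14260 genes, two-sided, threshold 0.05). CPM is TMM-scaled, and the SE comes from the replicates' log2 CPM (prior count 2), so it can understate the error at low counts. The procedure was tested on simulated data. DESeq2 1.42.0, other scalings, no filter, thinning, pairwise fits and leaving out each library were alternatives. Genes and lists were chosen with earlier results of these data known. For each chaperone and stress list and mutant group the genes with the highest and the lowest log2 difference from N2 past the threshold are named, and hsf-1 in any case. Of such genes in the marker lists only pie-1 and snb-1 are named. hsf-2 and unc-17 were not matched.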

Additional observations from a re-analysis of the deposited data

Results flagged for a closer look

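For the 4 measured small heat shock genes the double mutant departed from the sum of the single mutants' log2 differences, by the interaction term of the edgeR fit over all genes. The term was 5.66 on the log2 scale for sip-1, -2.62 for hsp-16.2, -2.33 for hsp-16.41 and -3.17 for hsp-12.2. The 3 double mutant libraries lay above all 6 single mutant libraries for sip-1 and below all 6 for both hsp-16 genes, and overlapped those of set-25 for hsp-12.2. As 64% of all genes passed the same test and the genes were chosen by their values, these terms are descriptions. The libraries labelled met-2 had met-2 RNA at 215 to 313 CPM against 314 to 330.1 CPM in N2, so the term rests on that label.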

How the results depend on the processing

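No paired analysis was possible because the columns carry letters and the sample labels carry numbers, and no source pairs them. Summing the hsp-16 copies gave no value, as all 4 were at 0. With scaling by library totals sip-1 in the double mutant was 2.44 above the libraries labelled met-2 (2.71 otherwise), and hsp-16.41 stood at -1.71 (-1.45 otherwise). Genes called in set-25 against N2 numbered 6519, and 4043 when only those groups were fitted. Genes called in the double mutant against N2 numbered 1717, with 2691 by the DESeq2 Wald test, 6114 when only those groups were fitted and 368 to 777 when a library of those groups was left out. Chaperone genes called there numbered 7, with 3 under library totals, DESeq2 size factors or no filter, 32 when only those groups were fitted, 2 after thinning, 4 without the libraries labelled met-2, a setting added after seeing the data, and 0 to 1 when a library of those groups was left out. The cause was not tested. Of 252 values of the 4 measured genes under these alternatives 12 changed their call and 0 called values changed sign. They were hsp-12.2 in the double mutant against N2, also lost without the libraries labelled met-2, and against the libraries labelled met-2, and hsp-16.41 in the double mutant against N2, called when only those groups were fitted. Of 32 named list genes, 28 were called in the libraries labelled met-2, 26 in set-25 and 7 in the double mutant, and only these could lose a call. Among the values of all 32 genes, 19 of 383 lost their call in the libraries labelled met-2, 40 of 414 in set-25 and 57 of 413 in the double mutant. Calls were gained in 3, 7 and 7 values in that order. The 57 losses thus fell on the 7 genes called there. With library totals cct-5, at -0.25 in the libraries labelled met-2, was at 0.017, and cct-4, at -0.29 in set-25, was at 0.018. The depth of 16929810 to 52683919 counts limits hsp-12.6, F08H9.4 and mtl-2, with few or no counts per library.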
